A study of Mus musculus with 4 samples.

Results

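Osteopontin (Spp1), haptoglobin (Hp), leucine-rich alpha-2-glycoprotein 1 (Lrg1) and chitinase-like 1 (Chil1) encode secreted glycoproteins, and their raw UMI counts were followed through 4 single-cell RNA libraries. They are 4 of the 27998 genes listed in the count files. They were chosen from measured values: the loss of Spp1 from early mammary lesion to primary tumor, the uneven spread of Spp1 over lesion cells, its relation to Wap and Elf5 there, and Hp in lung cells. Those values are therefore given as description. Counts are of UMIs, molecular tags that mark single captured RNA molecules, and a barcode was taken as a cell with at least 500 UMIs, at least 250 detected genes and a mitochondrial share of at most 20%.

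The libraries came from MMTV-HER2/Neu mice of the FvB strain, whose HER2/Neu transgene is under the MMTV promoter, active chiefly in mammary epithelium. Early mice were 14 to 18 weeks old without a palpable tumor, and gave the early lesion library (mammary gland) and the early lung library. Late mice were over 20 weeks old and bore a primary tumor, and gave the primary tumor library and the late lung library. In all 4 the cells were sorted as negative for the leukocyte antigen CD45 and positive for HER2, and profiled with 10X Chromium 3' chemistry. Every group thus carried the transgene and none was a wild-type control. With 1 library a group no difference could be tested. Whether a library holds 1 animal or several was not given in the sources used here, and intervals cover counting error only.

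The early lesion held 1318 cells, the primary tumor 434, the early lung 185 and the late lung 210, with 203676 to 3926447 UMIs in their cells. No cell barcode was shared between any pair of libraries. Cell composition differed by site: summed mammary luminal markers stood at 32585 CPM (UMI counts scaled to the total of a library's called cells, in the customary unit) in the early lesion and 77970 CPM in the primary tumor, but at 648 CPM in the early lung and 2039 CPM in the late lung. Of the called lung cells, 0 of 185 early cells (a count of 0 allows up to 1.62%) and 5 of 210 late cells fell in a mammary luminal-like cluster. In the primary tumor 18 cells with over 10000 UMIs held 54.5% of all UMIs, and their median mitochondrial share was 4.63% against 0.459% in the other 416 cells. Tumor to lesion ratios of the members, the acute-phase list and the osteopontin receptor list are given with and without those cells.

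Osteopontin is a phosphorylated matrix and milk protein that binds integrins and CD44. In the mammary gland it is made by secretory epithelium, and other sources are macrophages, osteoblasts and some mural cells. Haptoglobin and Lrg1 are acute-phase proteins, produced chiefly by the liver and induced by IL-6 family cytokines through STAT3: haptoglobin binds free hemoglobin, and Lrg1 modifies TGF-beta signalling in endothelium. Chil1 is a chitin-binding lectin without chitinase activity. Wap encodes whey acidic protein, a milk protein of late pregnancy and lactation, and Elf5 is the ETS transcription factor of alveolar differentiation.

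Spp1 lies on the plus strand of chromosome 5 (104435118 to 104441050, mm10), Hp on the minus strand of chromosome 8 (109575128 to 109579172), Lrg1 on the minus strand of chromosome 17 (56119678 to 56122001) and Chil1 on the plus strand of chromosome 1 (134182176 to 134190181), by GENCODE release M21. Promoter windows of Spp1, Lrg1 and Chil1 were found in the RefSeq table (GRCm38.p6), and the 250 bases before the start were searched for short motifs on both strands. The windows of Spp1 (chr5:104434861-104435110, plus strand) and Chil1 (chr1:134181906-134182155, plus strand) are shown, 5' to 3', because these genes differed in opposite directions between lesion and tumor over all called cells. Capitals mark the ETS core GGAA or its reverse complement TTCC.
Spp1: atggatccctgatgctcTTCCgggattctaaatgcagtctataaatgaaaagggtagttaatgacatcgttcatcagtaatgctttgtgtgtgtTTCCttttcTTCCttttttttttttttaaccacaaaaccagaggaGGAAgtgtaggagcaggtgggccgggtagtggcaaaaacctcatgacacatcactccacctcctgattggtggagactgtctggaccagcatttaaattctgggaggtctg
Chil1: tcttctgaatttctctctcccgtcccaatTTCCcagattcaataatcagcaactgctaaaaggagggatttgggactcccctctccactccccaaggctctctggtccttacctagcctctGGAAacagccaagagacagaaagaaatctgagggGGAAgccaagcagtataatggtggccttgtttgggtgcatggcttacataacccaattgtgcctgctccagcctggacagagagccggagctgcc
The Spp1 window held 4 ETS cores, the Chil1 window 3 and the Lrg1 window 5, where 93.5% of all 32851 RefSeq windows of that length held at least 1 and the median was 3. A second RefSeq window of Spp1 (chr5:104435942-104436191) held 2 ETS cores and 1 C/EBP motif. Neither the STAT motif TTCNNNGAA (in 7.02% of all windows), the C/EBP motif TTGCNNAA (9.56%) nor the AP-1 motif TGANTCA (6.75%) occurred in the first Spp1 window or in those of Lrg1 and Chil1. The TATA motif TATAAA (12.4% of all windows) occurred once in the first Spp1 window, 211 bases before the start, and not in the windows of Lrg1 and Chil1. These letter matches are a description of the windows and do not show binding.

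Spp1 RNA was abundant in the early lesion and nearly gone from the primary tumor. The early lesion gave 14511 Spp1 UMIs (3696 CPM, 95% interval 3636 to 3756), the primary tumor 9 UMIs (4.93 CPM, 2.25 to 9.36), the early lung 85 UMIs (417 CPM, 333 to 516) and the late lung 278 UMIs (675 CPM, 598 to 759). The order of levels was early lesion, late lung, early lung and primary tumor, and no neighbouring pair overlapped in its counting interval. Of the 9 tumor UMIs, 6 were in 1 cell. The log2 ratio of tumor to lesion was -9.47 (95% counting interval -10.68 to -8.62), a 710-fold lower level. In a sum over cells, fewer cells of a type and less RNA per cell cannot be told apart.

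The share of cells with Spp1 differed in the same direction. With each cell thinned to 500 UMIs, which keeps all called cells, 566 of 1318 lesion cells (42.9%, exact binomial 95% interval 40.2 to 45.7) and 1 of 434 tumor cells (0.230%, 0.00583 to 1.28) held a Spp1 UMI. Without thinning the shares were 66.5% and 0.691%. Free RNA, taken from barcodes of 1 to 50 UMIs, held Spp1 at 4069 CPM in the lesion and 9.53 CPM in the tumor, above the level of the cells in each (3696 and 4.93 CPM), with overlapping intervals in the tumor. In the lesion, 4 of 8 endothelial-like cells held a Spp1 UMI, at 777 CPM (312 to 1602). Their median depth was 796 UMIs, against 2360 over all lesion cells. At a finer clustering (Leiden resolution 2.0) the endothelial-like clusters held 0 lesion cells, so the name of these 8 cells is uncertain. With Spp1 this abundant in free RNA, a single Spp1 UMI in a lesion cell is not read as expression.

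Hp was almost absent from the tumor as well. It gave 486 UMIs in the early lesion (124 CPM, 113 to 135), 1 in the primary tumor (0.548 CPM, 0.0139 to 3.05), 47 in the early lung (231 CPM, 170 to 307) and 119 in the late lung (289 CPM, 239 to 346). As summed levels both lung libraries stood above the lesion, their intervals overlapped each other, and the tumor stood far below. The tumor to lesion log2 ratio was -7.24 (-13.13 to -5.33). In the lesion 1 cell of 6219 UMIs held 155 of the 486 Hp UMIs, and it also held 303 Spp1 and 22 Chil1 UMIs. Without that cell the Hp log2 ratio of early lung to early lesion moved from 0.91 (0.43 to 1.33) to 1.46 (0.98 to 1.89), which passes 2-fold. With every cell weighted equally (mean of per-cell CPM) it turned to -0.86.

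Lrg1 was lower in the tumor by a smaller fold than Spp1 or Hp. It gave 159 UMIs in the early lesion (40.5 CPM, 34.4 to 47.3), 26 in the primary tumor (14.2 CPM, 9.30 to 20.9), 2 in the early lung (9.82 CPM, 1.19 to 35.5) and 8 in the late lung (19.4 CPM, 8.38 to 38.3). The intervals of the tumor and both lungs overlapped. The tumor to lesion log2 ratio was -1.49 (-2.17 to -0.90). A single tumor cell of 78815 UMIs held 17 of the 26 tumor UMIs, and without the cells over 10000 UMIs the log2 ratio was -2.66 (-4.43 to -1.54).

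Chil1 was the member with a higher sum in the tumor, and that rested on few cells. It gave 194 UMIs in the early lesion (49.4 CPM, 42.7 to 56.9), 300 in the primary tumor (164 CPM, 146 to 184), 3 in the early lung (14.7 CPM, 3.04 to 43.0) and 6 in the late lung (14.6 CPM, 5.34 to 31.7). The tumor to lesion log2 ratio was 1.73 (1.47 to 2.0). The 18 tumor cells over 10000 UMIs held 238 of the 300 UMIs (239 CPM), and the other 416 cells stood at 74.7 CPM (57.3 to 95.8). Without cells over 10000 UMIs the log2 ratio was 0.54 (0.10 to 0.96), short of 2-fold. Within mammary luminal-like cells (clusters led by Ccnb1, Dnajb1, Atf3, Wap and Fasn in the lesion, and 326 of 335 cells from the Tesc-led cluster in the tumor) it turned to -0.70 (-1.37 to -0.14). A tumor cluster of 95 cells led by Aqp5, Col11a1, Nf1 and Xist, which stayed unnamed, held 273 of the 300 UMIs. In that cluster, and in a lesion cluster led by Rspo1 and Krt14, 8 of 10 mammary luminal markers reached 10% of thinned cells. Both stayed unnamed because a leading gene was on another marker list. Values within mammary luminal-like cells, here and below, leave both out. Unnamed tumor cells held 1067320 of 1825842 tumor UMIs. The part of depth and of the higher mitochondrial share in the Chil1 difference was not tested.

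**Figure D1:**
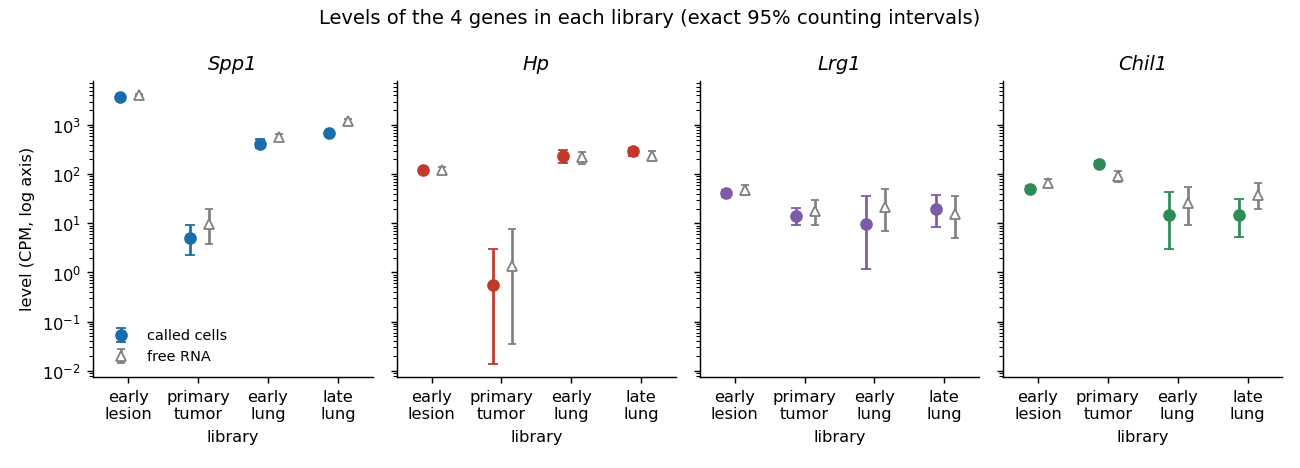
Level of each gene in each library in CPM on a log axis, with called cells as filled circles, free RNA as open triangles and exact 95% counting intervals as bars. Spp1 spans 3696 CPM in the early lesion to 4.93 CPM in the primary tumor, and Chil1 has its highest value, 164 CPM, in the primary tumor.

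To be called, a gene needed 20 counts over both libraries, a change of 2-fold or more, and a counting interval on 1 side of equal levels. From lesion to tumor 3 of the 4 members were lower, where 6.68% of 9811 genes were lower, and 1 was higher, where 24.5% were higher. The rule used this contrast, so the counts describe the choice. Wap went with Spp1: 1591 UMIs (405 CPM) in the lesion, 6 (3.29 CPM) in the tumor and 0 in both lungs (3 counts would make 14.7 CPM in the early lung and 7.28 CPM in the late lung). Elf5 was lower by less, from 3465 UMIs (882 CPM) to 386 (211 CPM), a log2 ratio of -2.06 (-2.22 to -1.91), and it gave 3 UMIs in the early lung and 6 in the late lung. Within mammary luminal-like cells Spp1 was at 4434 CPM in the lesion and at 1 UMI (1.32 CPM, 0.0334 to 7.36) in 335 tumor cells, while Elf5 stood at 895 and 312 CPM.

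**Figure D2:**
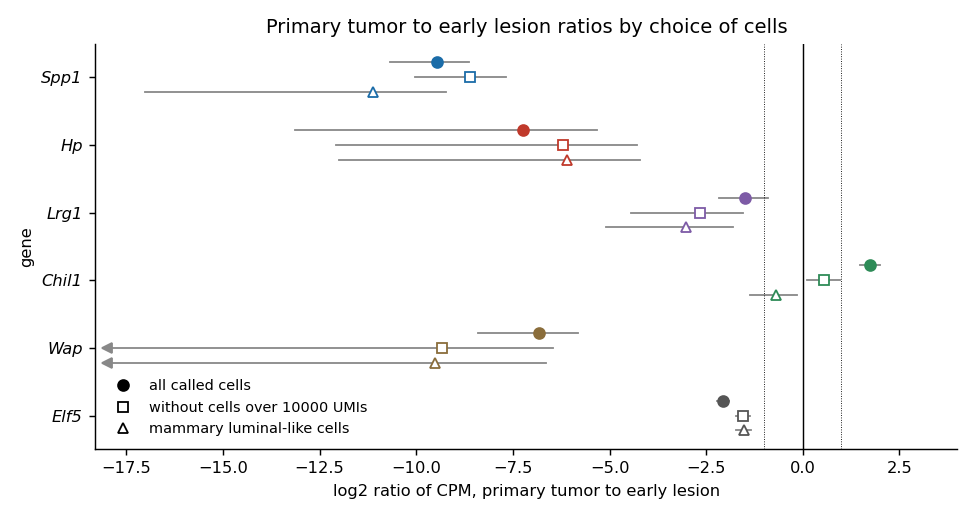
Log2 ratio of CPM, primary tumor to early lesion, over all called cells (filled circles), without cells over 10000 UMIs (open squares) and within mammary luminal-like cells (open triangles), with 95% counting intervals as lines, arrowheads for intervals with no lower bound and dotted lines at 2-fold. Spp1, Hp, Lrg1, Wap and Elf5 stay below 0 in all 3, and Chil1 passes from 1.73 to -0.70.

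Of the wider acute-phase list, most members with enough counts were lower in the tumor. Of its 15 members with enough counts, Hp and Lrg1 included, 12 were lower and 3 higher, with a median log2 ratio of -2.98 against 0.33 over all genes, and against the 6.68% and 24.5% of all genes called lower and higher. The complement component C3 gave 576 UMIs in the lesion and 1 in the tumor, and the iron-binding milk protein Ltf 502 and 2. Saa1, a serum amyloid A gene, gave 87 and 3, and the metallothionein Mt2 went from 659 to 73.9 CPM. Hp, C3, Ltf and Saa1 passed the count filter through the lesion alone, which favours lower calls among such genes. The list was also written with earlier results of these data known, so its counts are a description. The higher members were Lcn2, an iron-siderophore binding protein (797 to 4154 CPM), the copper oxidase Cp (91.2 to 182 CPM) and the complement gene C4b (4 to 22 UMIs). Without cells over 10000 UMIs 1 of 14 was higher, Lcn2, and 11 were lower, where 13.3% and 9.35% of all genes were. Within mammary luminal-like cells 0 were higher, 13 of 14 were lower, where 12.9% and 12% of all genes were, and Lcn2 stood at a log2 ratio of 0.91 (0.81 to 1.01).

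Genes for osteopontin receptors were higher in the tumor sum, again with the weight in a few cells. All 7 measured genes of the list were called higher, where 24.5% of all genes were, with a median log2 ratio of 2.46: Itgb3 went from 6 to 63 UMIs, Itgb5 from 22 to 149 and Itga8 from 14 to 49. These are integrin subunits, and Itgb3 and Itga8 passed the count filter through the tumor alone. Without cells over 10000 UMIs 2 of 4 measured genes were higher, Itgb5 (2.72, 1.82 to 3.68) and Itga8 (2.26, 0.96 to 3.59), while Itgb1 stood at -0.09 (-0.56 to 0.33) and Cd44 at 3 against 17 UMIs. Within mammary luminal-like cells 1 of 2 measured genes was higher, Itgb5 (1.36, 0.10 to 2.49), and Itgb1 stood at -0.78 (-1.43 to -0.23). Of the milk and alveolar list 10 of 20 genes were lower and 4 higher: the casein gene Csn2 went from 205665 to 117 UMIs and the milk mucin Glycam1 from 18967 to 3, while Csn3 had 10103 CPM in the lesion and 15622 CPM in the tumor. Without cells over 10000 UMIs Csn3 stood at 10127 and 10398 CPM, a log2 ratio of 0.04. In that setting Trf and Prlr were not called higher, while Lalba and Wfdc18 still were. Scaling by the median of gene ratios in place of total UMIs shifted all log2 ratios by 0.30 (the median of all genes to 0.03), the calls over all genes to 18.1% higher and 10.4% lower, and the receptors called higher to 6 of 7.

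Other lists were read against the same shares over all genes, 24.5% higher and 6.68% lower. Of 13 genes of IL-6 family and STAT3 signalling 5 were higher, Jak1 among them (29.8 to 117 CPM), and 4 lower, with the AP-1 subunit Junb at 353 and 45.5 CPM and the feedback inhibitor Socs3 at 53 and 1 UMIs. Of 9 C/EBP and NF-kB factor genes 1 was higher and 4 lower, with Nfkbia, an inhibitor of NF-kB, at 781 and 118 CPM, Relb at 46.9 and 11.5 CPM and Cebpa at 181 and 22 UMIs. Of 4 genes for handling haptoglobin and heme 1 was lower, the ferritin heavy chain Fth1 (7607 to 2650 CPM). Of 11 Lrg1 and TGF-beta receptor pathway genes 4 were higher and 1 lower: Tgfbr2, a TGF-beta receptor, had 13 UMIs in the lesion and 58 in the tumor, Smad3 12 and 33, and Smad5 29 and 38. Of 3 chitinase-like family genes Chil1 alone was called. Of 8 mammary involution genes 2 were higher and 2 lower, near the background for higher calls. Of 9 luminal progenitor genes 4 were higher, with the receptor Kit at 38 and 188 UMIs, and 3 lower, with the Wnt agonist Rspo1 at 815 and 0 UMIs (at least 126-fold lower against a floor of 3 counts). The immediate early list had 9 of 10 genes lower, at a median of -2.92 beside the -2.98 of the acute-phase list. Fos stood at 945 and 72.8 CPM, Atf3 at 313 and 5 UMIs and Fosb at 139 and 0. The cell cycle list had 7 of 20 lower and 0 higher, with Hmgb2 at 836 and 269 CPM, Ube2c at 325 and 114 CPM and Ccnb1 at 100.1 and 34.5 CPM.

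Over early lesion cells Spp1 was spread very unevenly. After thinning each cell to 1000 UMIs, which kept 1041 cells and left out 277, 492 cells (47.3%) held no Spp1 UMI, where a Poisson spread at the mean of 3.82 would give 2.19%. The median was 1 UMI, the 90th percentile 9, the 99th 67 and the maximum 100. The tenth of cells with most Spp1 held 69.1% of its UMIs, and 43 cells held 50.1%. The variance to mean ratio (Fano factor) was 29.8, the fifth highest of 3351 genes, after Cxcl13, Malat1, Acta2 and Fabp4. The Fano factor was 8.05 for Hp, 2.63 for Wap, 2.41 for Chil1, 1.3 for Lrg1 and 1.22 for Elf5, which lies near the value of 1 for a Poisson spread. Mean UMIs a cell were 0.130 for Hp, 0.386 for Wap, 0.0538 for Chil1, 0.0346 for Lrg1 and 0.907 for Elf5. The factor depends on the mean, so it does not rank these genes by unevenness. The tenth of cells with most Wap held 69.4% of its UMIs, close to the share for Spp1, and for Elf5 it was 35.1%.

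**Figure D3:**
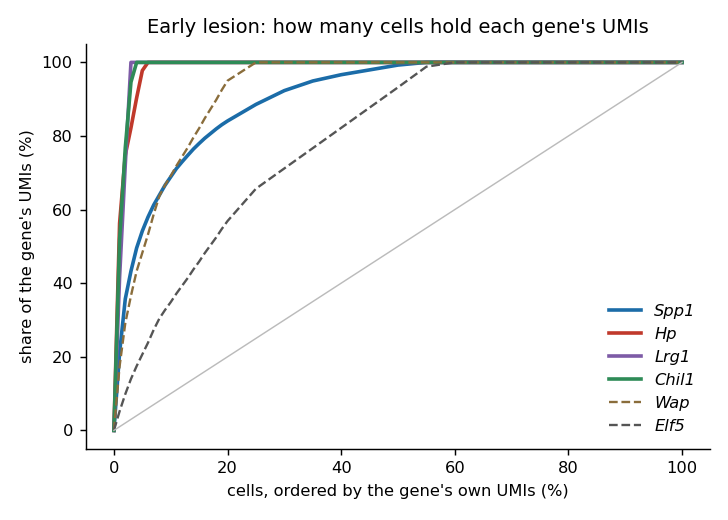
Share of each gene's UMIs held by early lesion cells ordered by that gene, each cell thinned to 1000 UMIs, with the members as solid lines, Wap and Elf5 dashed and a grey diagonal for an even spread. The top 10% of cells hold about 69.1% of Spp1 UMIs, and Hp, Lrg1 and Chil1 are reached within the first few percent of cells because most cells have none.

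Spp1 went with milk genes over these cells. The highest Pearson coefficients with Spp1 (log2 of 1 + UMIs, 1041 cells of 1 library, all thinned to the same depth) were for Csn3 (0.44), Trf (0.41), Lalba (0.37), Glycam1 (0.36), Csn1s2a (0.27), Wap (0.27), Fabp3 (0.27) and Csn2 (0.26). Caseins, the transferrin gene Trf and the lactose synthase subunit Lalba are products of secretory alveolar cells. The lowest were for Ptma (-0.26), Tmsb4x (-0.24) and Tmsb10 (-0.23). With Elf5 the coefficient was 0.09, and with the cell's total UMIs before thinning 0.05. Coefficients in sparse counts this size are a description of weak relations.

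Grouped by Spp1 UMIs, cells with 2 or more held Wap more often than cells with 0 or 1, and Elf5 differed less between groups. The group limits were set after the data were seen. A Wap UMI was found in 13.2% of cells with 0 Spp1 UMIs, 14.8% with 1, 34.0% with 2 to 4, 37.8% with 5 to 9, 43.8% with 10 to 19 and 34.9% with 20 or more. The last group was below the one before it, within their intervals. Mean Elf5 went from 0.82 UMIs a cell in the first group to 1.17 and 1.28 in the last pair of groups. The 43 cells with 20 or more Spp1 UMIs had a median depth of 2357 UMIs before thinning, against 2758 in the 492 cells with none.

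Cells with 20 or more Spp1 UMIs held Hp, Lrg1 and Chil1 more often than cells with fewer, but most cells with each gene lay outside that group. In the 43 cells with 20 or more Spp1 UMIs, 13 held Hp (30.2%, 17.2 to 46.1), 10 held Lrg1 (23.3%, 11.8 to 38.6) and 15 held Chil1 (34.9%, 21 to 50.9). In each of the groups with fewer Spp1 UMIs the share was at most 5.92% for Hp, 3.14% for Lrg1 and 5.10% for Chil1. Of the 55 cells with Hp, 23 had 0 Spp1 UMIs, as did 8 of 31 with Lrg1 and 6 of 34 with Chil1. Over all 1041 cells the Pearson coefficient with Spp1 was 0.32 for Chil1, 0.18 for Hp and 0.18 for Lrg1, with Spearman coefficients of 0.18, 0.06 and 0.11. The Pearson coefficient was 0.29 between Hp and Chil1 and 0.27 between Lrg1 and Chil1. With Wap it was -0.05 for Hp, -0.01 for Lrg1 and -0.01 for Chil1. Of 102 cells with Hp, Lrg1 or Chil1, 14 also held Wap (13.7% of the 102 and 6.14% of the 228 cells with Wap), where Wap was held by 21.9% of all cells. Most of these cells held few UMIs of the gene, and lesion free RNA held each gene near the level of the cells (Hp 121, Lrg1 47.9, Chil1 67.2 and Wap 402 CPM), so the overlap is not read as shared or separate expression. Of the 8 endothelial-like cells, whose name was not kept at the finer clustering, 0 held Hp, Lrg1 or Chil1 and 1 held Wap, all before thinning.

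**Figure D4:**
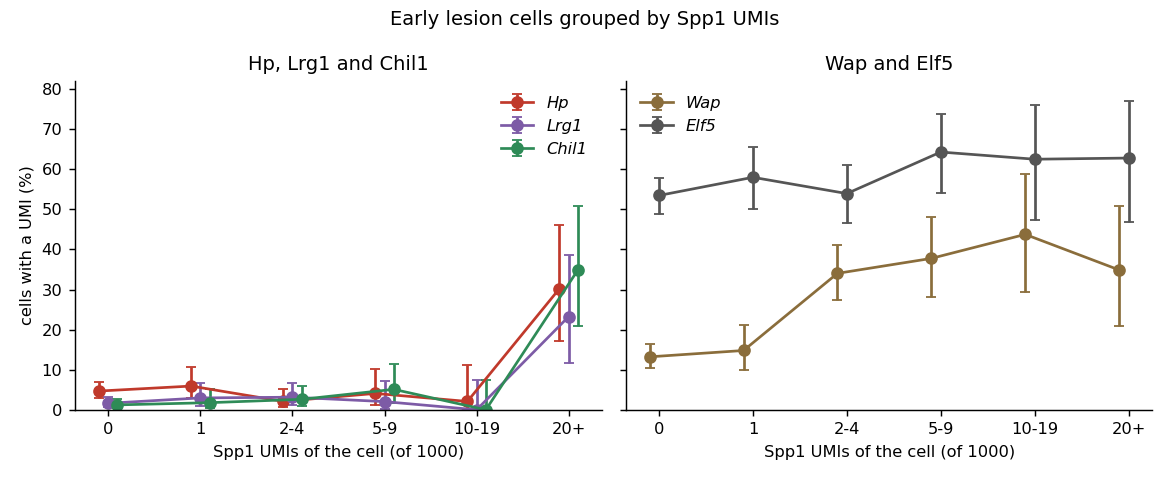
Share of early lesion cells with a UMI of each gene, in cells grouped by their Spp1 UMIs out of 1000, with exact 95% binomial intervals as bars. Hp, Lrg1 and Chil1 are at most 5.92% up to 19 Spp1 UMIs and reach 30.2%, 23.3% and 34.9% at 20 or more, while Wap reaches 43.8% at 10 to 19 and Elf5 spans 53.5% to 64.3%.

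The cells with most Spp1 came from more than 1 lesion cluster. Of the 43 cells, 24 lay in a cluster led by Atf3, Fos, Ltf and Fosb, where 2 of the 24 held Wap and 19 held Hp, Lrg1 or Chil1. A further 15 lay in a cluster led by Wap, Glycam1, Lao1 and Fabp3, where 10 held Wap and 3 held Hp, Lrg1 or Chil1. The clusters were built with the 4 members left out, but Wap was used in them. Both clusters were mammary luminal-like. Other marker lists moved along the Spp1 groups too. The 43 cells held 4 UMIs of macrophage, monocyte and neutrophil markers in all. That was a mean of 0.093 a cell against 0.0203 in cells with 0 Spp1 UMIs and 0.0102 to 0.0625 in the groups between. From the group with 0 to that with 20 or more, basal markers went from a mean of 0.673 to 0.093 UMIs a cell, cell cycle genes from 3.07 to 0.465 and immediate early genes from 2.72 to 5.93. Their part in the Spp1 groups was not tested.

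By cluster, Spp1 stood at 7674 CPM in the Atf3-led cluster of 191 cells and at 5311 CPM in the Wap-led cluster of 355 cells. It stood at 2697 CPM in the Dnajb1-led cluster, 2179 CPM in the Fasn-led cluster and 1748 CPM in the cluster led by the mitosis genes Ccnb1 and Ube2c. In the cluster led by Rspo1 and Krt14 it was 838 CPM (774 to 905). That lies inside the interval of the 8 endothelial-like cells, whose name was not kept at the finer clustering. The Atf3-led cluster held 63.8% of lesion Hp UMIs, 50.9% of Lrg1 and 70.1% of Chil1, at 555, 145 and 244 CPM, but 2.33% of Wap. The cell with 155 Hp UMIs lay in this cluster, and without it, a value added after seeing the data, the cluster held 46.8% of lesion Hp UMIs at 281 CPM (238 to 329). The Wap-led cluster held 78.6% of Wap and 6.996% of Hp, 28.9% of Lrg1 and 13.4% of Chil1. Within the Atf3-led cluster the Pearson coefficient of Spp1 with Wap was 0.05 (155 thinned cells), and within the Wap-led cluster 0.21 (319 cells). It was 0.36 in the Dnajb1-led cluster (76 cells), 0.37 in the Fasn-led cluster (45 cells) and 0.21 in the Ccnb1-led cluster (225 cells). In the cluster led by Rspo1 and Krt14 it was -0.02 (205 cells). Immediate early genes lead the Atf3-led cluster, and their part in the member levels was not tested.

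Lcn2 and Spp1 were among the nearest genes of Hp, Lrg1 and Chil1 alike. For Hp the highest coefficients were with Cst3 (0.25), Lcn2 (0.24), Spp1 (0.18), Anxa2 (0.16), Igfbp5 (0.15), Cd63 (0.15), Mfge8 (0.15) and Atp2c1 (0.14), and the lowest with Csn2 (-0.23), Csn1s2a (-0.21), Wfdc18 (-0.17) and Csn1s1 (-0.14). These caseins and Wfdc18 thus stood at the low end for Hp, while Mfge8, also on the milk and alveolar list, was among the highest. Lrg1 went most with Lcn2 (0.25), Lalba (0.24), the lipopolysaccharide co-receptor gene Cd14 (0.18), Spp1 (0.18), Mfge8 (0.17), Ltf (0.17), Trf (0.16) and Epcam (0.16), and least with Ptma (-0.12), Tmsb4x (-0.10), Thrsp (-0.10) and Slc25a5 (-0.09). Chil1 went most with Spp1 (0.32), Cyb5a (0.30), Hp (0.29), Lcn2 (0.28), Trf (0.21), Cst3 (0.20), Lalba (0.19) and Cd63 (0.19), and least with Ptma (-0.17), Csn1s2a (-0.16), Wfdc18 (-0.14) and Acot1 (-0.13). Lrg1 and Chil1 thus share Trf and Lalba with Spp1. Hp, Lrg1 and Chil1 had a UMI in 55, 31 and 34 of the 1041 cells, so each coefficient rests on few cells.

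In the lungs Spp1 was lower than in the lesion and higher than in the tumor. For Spp1 the early lung to early lesion log2 ratio was -3.14 (-3.47 to -2.84), where 11.9% of 8776 genes were called lower, and the late lung to primary tumor ratio was 7.02 (6.15 to 8.24), where 20.6% of 8740 were called higher and 38% in either direction. Between the lungs the log2 ratio, late to early, was 0.69 (0.34 to 1.06) for Spp1 and 0.31 (-0.17 to 0.84) for Hp, with no member past the rule over all called cells, where 8.7% of 4552 genes were called higher, 3.45% lower and 12.1% in either direction. Spp1 was called higher in the late lung in cells of at least 1000 UMIs (1.35, 0.71 to 2.11) and without cells over 10000 UMIs (1.10, 0.74 to 1.49), of which the late lung had 8 with 42.2% of its UMIs. Hp stood at -0.15 (-0.65 to 0.39) in cells of at least 1000 UMIs and at 0.94 (0.44 to 1.47) without cells over 10000 UMIs. Hp was higher in the late lung than in the tumor as well, at 8.46 (6.54 to 14.36), with 1 tumor UMI behind the ratio. Lrg1 and Chil1 had 2 to 8 UMIs in each lung. Both were called lower in the early lung than in the lesion, at -1.73 (-5.10 to -0.17) for Lrg1 and -1.53 (-4.04 to -0.18) for Chil1, and Spp1 was lower too. The Lrg1 and Chil1 calls rest on 2 and 3 lung UMIs and were both lost with 5 counts added (-0.28 and -0.37) and in cells of at least 1000 UMIs (-1.46, -7.36 to 0.46, and -1.04, -4.42 to 0.52). From tumor to late lung the Lrg1 ratio was 0.51 (-0.91 to 1.63), which passed in neither direction. Chil1 was lower in the late lung than in the tumor, where 17.4% of genes were, at -3.38 (-4.95 to -2.36), and at -1.46 (-3.07 to -0.36) without cells over 10000 UMIs.

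Hp in the lungs sat in cells rich in Scgb1a1, the secretoglobin of airway club cells. A cluster led by Scgb1a1 and the hemoglobin genes Hbb-bs, Hba-a1 and Hba-a2, which stayed unnamed because its leading genes mixed several types, held 44 of 47 Hp UMIs in 15 early lung cells (1152 CPM, 837 to 1546) and 111 of 119 in 23 late lung cells (1659 CPM, 1365 to 1998). In cells with Scgb1a1 at 30% or more of their UMIs, a limit set after the data were seen, Hp stood at 1330 CPM (966 to 1786) in 9 early cells and 2301 CPM (1893 to 2771) in 15 late cells. An Hp UMI was found in 7 of the 9 and in 14 of the 15. The other cells stood at 17.6 CPM (3.63 to 51.4) and 22 CPM (9.49 to 43.3), which is 3 UMIs in 176 early cells and 8 in 195 late cells, with median depths of 758 and 771 UMIs against 3197 and 2251. Alveolar type 1-like cells held 2 Hp UMIs in 62 early cells and 1 in 94 late cells. Free RNA held Hp at 218 CPM in the early lung and 238 CPM in the late lung.

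Among the Scgb1a1-rich cells Hp ranged widely. In the early lung the 7 positive cells held 12, 10, 8, 7, 5, 1 and 1 Hp UMIs. In the late lung the highest cells held 30, 26 and 16, at 4701, 2548 and 1451 UMIs, and a cell of 14772 UMIs held 1. In both lungs these cells, a chosen part, stood above the 124 CPM of all early lesion cells. The Atf3-led lesion cluster stood at 555 CPM, and at 281 CPM without the lesion cell richest in Hp. The same cells held 1 Spp1 UMI in each lung.

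Spp1 in the lungs sat elsewhere, in a cluster led by Dcn, Cox4i2, Gucy1b3 and Clec3b. It held 77 of 85 Spp1 UMIs in 35 early lung cells (2429 CPM, 1917 to 3036) and 232 of 278 in 32 late lung cells (5260 CPM, 4604 to 5982). That cluster mixed fibroblast and pericyte markers and stayed unnamed. At a finer clustering (Leiden resolution 2.0) a pericyte or smooth muscle-like cluster, the contractile cells around vessels, held 76 Spp1 UMIs in 23 early cells (4100 CPM) and 211 in 25 late cells (8216 CPM). Fibroblast-like cells of the same clustering held 1 in 12 early cells and 21 in 7 late cells. Lung cells were also grouped by UMIs of Rgs5, Pdgfrb, Gucy1a3, Gucy1b3, Notch3 and Postn, without the contractile markers Acta2, Tagln, Myl9 and Cnn1. With 3 or more such UMIs Spp1 stood at 2524 CPM (early, 1971 to 3184) and 2134 CPM (late, 1869 to 2427), and with none at 46.8 and 50.6 CPM. These marker UMIs were counted without thinning, so deep cells reach 3 more readily, and the grouping was not among the planned results. The late value was not above the early one here, unlike in the clusters. The macrophage list summed to 270 CPM in the early lung (6 of 12 markers with a count) and 740 CPM in the late lung (10 of 12). The pan-leukocyte gene Ptprc was at 0 in both. Macrophage and monocyte-like cells of the finer clustering were 1 early cell with 0 Spp1 UMIs and 2 late cells with 1. A macrophage part in lung Spp1 was not tested. Free RNA held Spp1 at 564.5 CPM (472 to 669) in the early lung and 1220 CPM (1102 to 1348) in the late lung. Both stood above the 417 and 675 CPM of all called cells, with overlapping intervals in the early lung. The part of free RNA in the lung Spp1 levels was not tested.

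**Figure D5:**
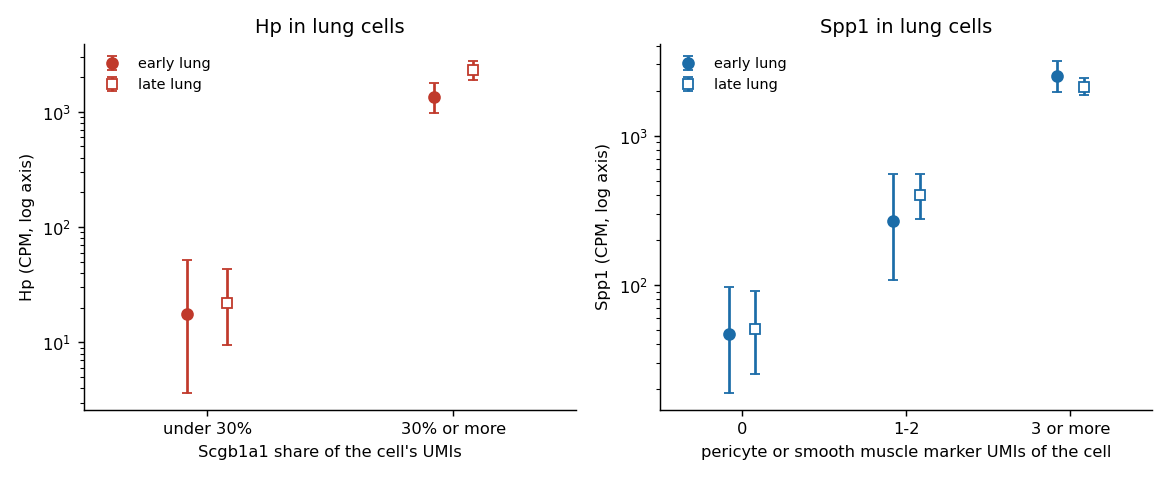
Left, Hp in CPM on a log axis in lung cells with Scgb1a1 under 30% or at 30% or more of their UMIs; right, Spp1 in CPM on a log axis in lung cells grouped by UMIs of pericyte or smooth muscle markers, with early lung as filled circles, late lung as open squares and exact 95% counting intervals as bars. Hp rises from 17.6 and 22 CPM to 1330 and 2301 CPM, and Spp1 from 46.8 and 50.6 CPM to 2524 and 2134 CPM. The only markers used on the right were Rgs5, Pdgfrb, Gucy1a3, Gucy1b3, Notch3 and Postn, counted without thinning.

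The 5 mammary luminal-like cells of the late lung held 3 Spp1 UMIs (186 CPM, 38.3 to 543), 3 Chil1 UMIs and 0 of Hp and Lrg1, a number too small to place them near the lesion or the tumor. Lrg1 was in endothelial-like cells for 2 of its 2 early lung UMIs and 7 of its 8 late lung UMIs, 5 of the 7 in a cluster of 9 cells with a median of 22093 UMIs.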

How the data were processed

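The 4 files hold counts deposited by the authors: whole-number UMI counts per gene and barcode, not normalized, for 27998 genes and 737280 barcodes. Per the submitters' processing notes the build was mm10; aligner, counter and annotation are not given in the sources used here. Counts were summed over called cells and scaled to CPM; ratios used 0.5 added counts and exact 95% intervals, and no test was run. Clustering (scanpy 1.11.5) left out the 4 genes and used 2000 variable genes, 30 components, 15 neighbours and Leiden resolution 1.0. Clusters were named from marker lists, the names may differ from the study's, and a cluster mostly of 1 library may be that library rather than a type. Scrublet called 1, 6, 1 and 4 doublets in the early lesion, primary tumor, early lung and late lung, too few to show that it worked, and all were kept.

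Genes named were the members, Wap, Elf5, those with the highest and lowest correlation with a member, and up to 3 of each list by the interval bound nearest a ratio of 1. A gene that this rule names is not reported here. Genes named after their values were seen were Saa1, Mt2, Cp, C4b, Itgb1, Cd44, Ptprc, Prlr, the genes with a higher Fano factor than Spp1 and cluster leaders. Members and lists were chosen with earlier results of these data known. On sums simulated from the lesion and tumor means, 100% of 200 changed genes were recovered and 0.976% of unchanged genes were called, over 9932 genes. The simulation drew Poisson sums and set large changes in well-counted genes. It left out clumping of UMIs in few cells and differences between animals. It thus gives no error rate for the calls made here.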

Additional observations from a re-analysis of the deposited data

Results flagged for a closer look

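Spp1 differed from mammary site to lung in opposite directions at the 2 stages. Its log2 ratio was -3.14 from early lesion to early lung and 7.02 from primary tumor to late lung. With 1 library in each group this difference was not tested. Cell composition differed by site: 0 of 185 early and 5 of 210 late lung cells were mammary luminal-like. The loss of Spp1 from lesion to tumor was also part of the rule that chose the gene.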

How the results depend on the processing

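Every alternative kept Spp1 lower in the primary tumor than in the early lesion. Its log2 ratio was -10.83 in cells of at least 1000 UMIs, -8.62 without cells over 10000 UMIs, -11.13 within mammary luminal-like cells and -7.75 as a mean of per-cell CPM. The Hp ratio of early lung to early lesion, not called over all cells, turned to -0.86 as a mean of per-cell CPM. Chil1 (tumor to lesion) turned to -0.70 within mammary luminal-like cells; the cause was not tested. The share of lesion cells with Spp1 was 52.7% thinned to 1000 UMIs and 66.5% unthinned, and that of tumor cells was 0% thinned to 1000 UMIs. The coefficient of Spp1 with Wap was 0.35 thinned to 2000 UMIs. Hp in the late lung was at 2301 CPM in Scgb1a1-rich cells, a group added after seeing the data, as were the values without the lesion cell richest in Hp and the lesion coefficients without cells over 10000 UMIs.

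Counts of called genes moved more. From lesion to tumor 1156 genes were higher without cells over 10000 UMIs and 1082 within mammary luminal-like cells, against 2401, and 1025 were lower with median-of-ratios scaling and 1002 within mammary luminal-like cells, against 655. From early lesion to early lung 3223 were higher without a count filter, against 1941, and 1731 were lower with median-of-ratios scaling and 415 with 5 counts added, against 1047. From tumor to late lung 2854 were higher without a count filter and 1049 without cells over 10000 UMIs, against 1798, and 783 were lower with 5 counts added, against 1522. From early to late lung 169 were higher with 5 counts added and 138 without cells over 10000 UMIs, against 396, and 104 were lower with median-of-ratios scaling and 333 without a count filter, against 157. No paired analysis was possible because each group had 1 library. Depth limits Lrg1 and Chil1 in the lungs, where 1 count is 4.91 CPM in the early and 2.43 CPM in the late library.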
